A study of Vitis vinifera with 2 samples.

Results

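Of the 53573 leaf clusters of 24 nt, 20387 (38.1%, 95% exact interval 37.6 to 38.5%) lay on an EC cluster that was also of 24 nt, with both clusters under 500 bp, and these 20387 loci are described here. EC is embryogenic callus, a proliferating culture of dedifferentiated cells that can form embryos, and a cluster is a stretch of genome where small RNA reads lay close enough together to be joined by the program ShortStack. The class of a cluster is its DicerCall, the predominant length of its reads. A leaf cluster was taken with the EC cluster that overlapped it by most bases on the same sequence, by at least 1 bp, and by the lower start where overlaps were tied. The loci were thus chosen by measured values, namely the class, position and length of the clusters in both tissues. Their number, the fact that they overlap and part of their length distribution follow from the choice and are given as a description.

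Small RNA of 18 to 35 nt was sequenced from Vitis vinifera cv. 'Chardonnay', with 1 library of EC and 1 library of young leaf tissue. The EC cultures had been started from anthers, were grown in the dark on solid medium, and were pooled from several Petri dishes for a sample. The leaves came from the same vines and were also pooled. The labels name no treatment. EC differs from leaf in organ of origin as well as in culture, so the influence of these cannot be told apart.

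Small RNAs of 24 nt in plants are mostly heterochromatic siRNAs (het-siRNAs). In the canonical pathway of RNA-directed DNA methylation, RNA polymerase IV transcribes silenced repeats, RDR2 turns the transcript into double-stranded RNA, and DCL3 dices it to 24 nt. AGO4 and its relatives load the product and guide the methyltransferase DRM2 to matching DNA, which carries methylation in all sequence contexts, the asymmetric CHH context included. As the precursor is double-stranded, siRNAs can come from either strand of a locus, while the strand that ShortStack writes down for a cluster depends on how unevenly its reads fall on the DNA strands.

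The choice ran in steps, and the largest loss was at the overlap. Among the leaf 24 nt clusters, 24631 (46.0%, 45.6 to 46.4%) were overlapped by any EC cluster and 28942 (54.0%) were not. Where there was an overlap, the EC partner was of 24 nt in 21310 of 24631 cases (86.5%, 86.1 to 86.9%). The partner was without a call (N) in 2198 cases, of 23 nt in 616, of 21 nt in 226, of 22 nt in 172 and of 20 nt in 109. The length limit then removed 923 pairs, 686 of them with an EC cluster and 299 with a leaf cluster of 500 bp or more, and 62 counted under both. Seen from the callus, the 19940 EC clusters behind the loci made up 11.4% (11.2 to 11.5%) of the 175575 EC 24 nt clusters. The EC list held 227847 clusters and the leaf list 89597, which is 2.54 times as many in EC, so the kept loci were a small share of the callus list and a large share of the leaf list. The lists carried no read number per cluster, and the depth behind a locus is therefore unknown. For the libraries as a whole, the paper gives more genome-mapped reads after filtering in EC than in leaf, both total and distinct. The part of sequencing depth in these shares and in the cluster lengths was not tested. Intervals in the text are for the counting of loci only, and since loci of 1 library are not replicates, no difference between the tissues was tested.

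Pairs lay close to the limit on both sides, and among ties the first by sequence name and start are given. Just inside, an EC cluster of 87 bp on chromosome 16 (21489473 to 21489559, PN40024 12X build) was paired with a leaf cluster of 499 bp (21489027 to 21489525). On chr18_random an EC cluster of 499 bp (2113391 to 2113889) was paired with a leaf cluster of 55 bp (2113629 to 2113683). The third, on chrUn, had 276 bp in EC (26442046 to 26442321) and 499 bp in leaf (26441753 to 26442251). Just outside, a locus on chromosome 4 had 174 bp in EC and 500 bp in leaf, one on chromosome 5 had 500 bp in EC and 223 bp in leaf, and one on chromosome 9 had 500 bp in EC and 24 bp in leaf.

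The kept loci were longer in EC than in leaf. Their median length was 118 bp in EC (117 to 120 bp, quartiles 65 and 195 bp) and 85 bp in leaf (83 to 86 bp, quartiles 36 and 140 bp). Summed over the loci, the clusters came to 2.90 Mb in EC and 2.15 Mb in leaf, of which 1.37 Mb was shared. The 20387 loci had 19940 EC clusters, and an EC cluster over several loci was summed at each. The EC sum thus exceeds the length of genome covered. Loci of 100 bp or more made up 59.9% in EC and 42.7% in leaf. At the short end, a cluster of exactly 24 bp, no longer than a single het-siRNA, stood at 761 loci in EC (3.73%) and at 1864 loci in leaf (9.14%). Both tissues had a second rise at 110 to 120 bp, with 1124 loci in EC and 1101 in leaf in that bin, against 860 in EC and 815 in leaf in the bin above it.

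**Figure D1:**
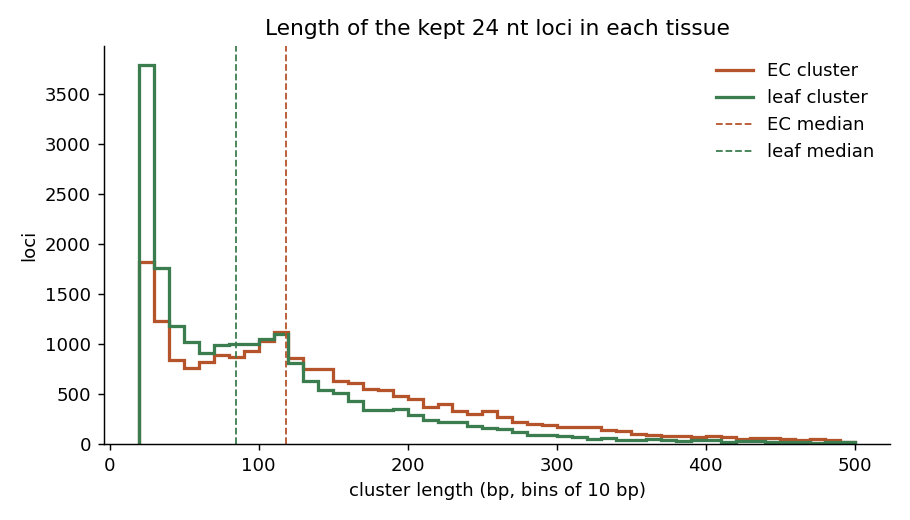
Number of loci (y axis) by cluster length in bp (x axis, bins of 10 bp) for the EC cluster and the leaf cluster of the same 20387 loci, with the medians of 118 bp in EC and 85 bp in leaf as dashed lines. In the shortest bin, 20 to 30 bp, there were 1819 loci in EC and 3795 in leaf, and EC had more loci than leaf in every bin from 110 to 500 bp.

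In both tissues the kept clusters were longer than those of their class with no cluster of the other tissue on them. The EC clusters of 24 nt with no leaf cluster on them had a median of 91 bp (91 to 92 bp, n = 146483), and the leaf clusters of 24 nt with no EC cluster on them had 58 bp (57 to 60 bp, n = 28942). Leaf clusters of 24 nt whose EC partner was of another class had a median of 84 bp (81 to 88 bp, n = 3321), close to the kept ones. The same was seen in EC. In 7693 pairs under the limit of an EC 24 nt cluster with a leaf cluster of another class, the EC median was 119 bp. Greater length thus went with overlap and was not particular to the kept loci. The overlap rule favours long clusters in both lists, and taking the longest overlap favours long EC clusters. The share that was kept went up with length. Of the EC 24 nt clusters, 7.15% of those of 24 bp and 22.5% of those of 300 to 499 bp belonged to kept loci. Of the leaf 24 nt clusters, 27.5% of those of 24 bp and 63.3% of those of 300 to 499 bp were kept. The lengths of the kept loci are thus set in part by the choice.

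Within a locus the EC cluster exceeded the leaf cluster by a median of 23 bp (21 to 24 bp), with quartiles of -23 and 98 bp. The EC cluster was the longer in 12725 loci (62.4%, 61.7 to 63.1%), the leaf cluster in 7258 (35.6%), and both had the same length in 404 (1.98%). Over all 35177 pairs of any size class under the same limit, the kept loci among them, EC was the longer in 62.1%. The share among the kept 24 nt loci was thus near that of the whole series. The median ratio of EC to leaf length was 1.30. EC was more than 2 times as long as leaf in 6971 loci (34.2%), and leaf more than 2 times as long as EC in 2819 (13.8%). These shares were not counted over all pairs, whose median ratio was 1.28.

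The size class of the partner went with the direction of the length difference. Where a leaf 24 nt cluster met an EC cluster of another class, the median difference was 0 bp and EC was the longer in 49.3% of 3266 pairs. Where an EC 24 nt cluster met a leaf cluster of another class, EC exceeded leaf by a median of 42 bp and was the longer in 70.0% of 7693 pairs. In pairs of 21 nt in both tissues the median difference was -4 bp and EC was the longer in 41.8% of 328. The kept 24 nt loci thus lay between the mixed pairs in this respect.

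The length of a locus in EC was only weakly tied to its length in leaf. Across the 20387 loci Pearson's r of log2 lengths was 0.22 and Spearman's rho 0.21, a description only, as all points come from the same pair of libraries and the overlap rule binds the lengths to each other. Loci of 24 bp in leaf had a median of 96 bp in EC, and those of 300 to 499 bp in leaf had 167 bp in EC. Turned round, loci of 24 bp in EC had a median of 42 bp in leaf, and those of 300 to 499 bp in EC had 105 bp in leaf. Leaf length hardly moved over the upper EC bins, with medians of 102, 104 and 105 bp in leaf for EC clusters of 150 to 199, 200 to 299 and 300 to 499 bp. As a result the sign of the difference depended on the tissue by which loci were binned. Loci of 150 to 199 bp in leaf were 26 bp shorter in EC by the median (median difference -26 bp), while loci of 150 to 199 bp in EC were 72 bp longer there than in leaf.

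**Figure D2:**
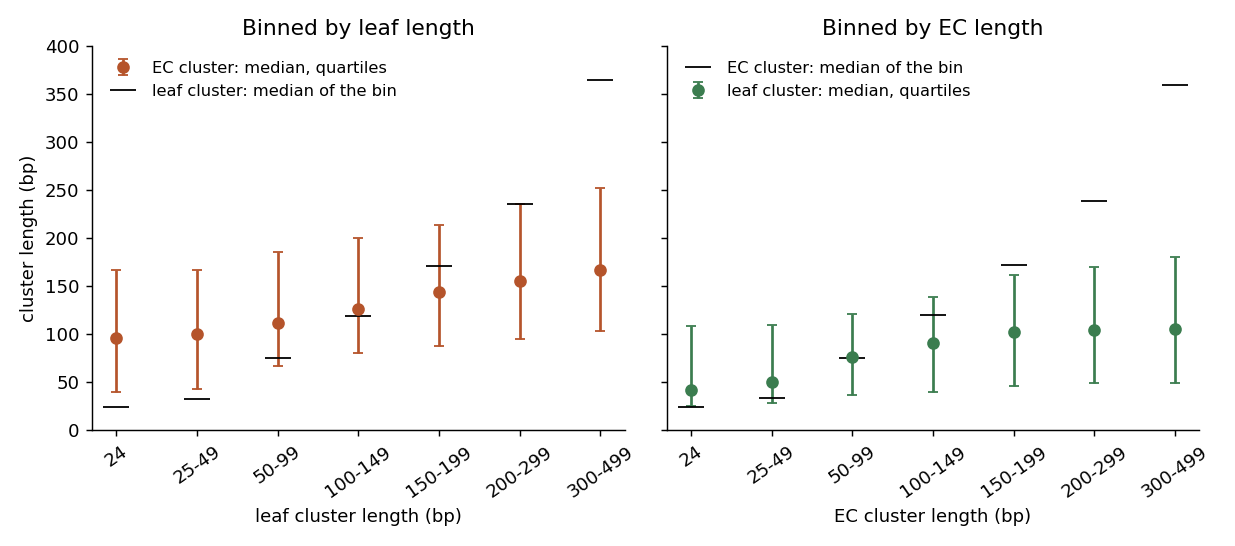
Left, length of the EC cluster (points, median; bars, quartiles) by length bin of the leaf cluster, with the median of the leaf clusters in the bin as a dash. Right, the same with the tissues exchanged. All y axes are in bp, and the points rise less than the dashes, between 96 and 167 bp for EC on the left and between 42 and 105 bp for leaf on the right.

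The extremes of the difference were loci with a long cluster in one tissue and 1 siRNA length in the other. On chr3_random the EC cluster had 492 bp (1029080 to 1029571) and the leaf cluster 24 bp (1029510 to 1029533). On chromosome 10 the EC cluster had 490 bp (10035698 to 10036187) and the leaf cluster 25 bp (10035760 to 10035784), and on chromosome 2 the EC cluster had 490 bp (16962233 to 16962722) and the leaf cluster 26 bp (16962233 to 16962258). The leaf cluster in all 3 lay whole within the EC cluster, on chromosome 2 flush with its lower end. In the other direction, a locus on chromosome 2 had 24 bp in EC (4105371 to 4105394) and 497 bp in leaf (4104953 to 4105449). One on chromosome 16 had 25 bp in EC (21511717 to 21511741) and 487 bp in leaf (21511347 to 21511833), and one on chromosome 5 had 31 bp in EC (20196006 to 20196036) and 492 bp in leaf (20195574 to 20196065). Here the EC cluster was the one held whole. The 3 longest loci in leaf, of 499 bp each, had EC clusters of 87 bp (chromosome 16), 276 bp (chrUn) and 207 bp (chrUn, 30805461 to 30805667 in EC and 30805103 to 30805601 in leaf), and all 3 were staggered.

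Extension in EC was seen as EC cluster beyond the leaf cluster at either end. The EC cluster held the whole leaf cluster in 7795 loci (38.2%, 37.6 to 38.9%), and the leaf cluster held the whole EC cluster in 3913 (19.2%). In 8392 loci (41.2%) the clusters were staggered, nearly evenly by direction, with EC toward the lower coordinate in 4262 and toward the higher in 4130. The clusters had the same start and end in 287 (1.41%). Where EC held leaf, the median lengths were 164 bp in EC and 45 bp in leaf, and where leaf held EC they were 59 bp in EC and 141 bp in leaf. Staggered loci had 117 bp in EC and 101 bp in leaf and shared 43 bp by the median. Over all loci the overlap was 46 bp by the median, which was 56.8% of the EC cluster and 90.1% of the leaf cluster as medians of the shares. In all pairs of any class under the limit these medians were 42 bp, 56.0% and 88.9%. Layouts follow from the lengths and overlaps, which the choice sets in part. Layouts, end offsets and shared ends were counted in the kept loci alone. Whether their shares differ from those of all pairs was not tested.

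EC reached beyond leaf at both ends alike. At the lower end EC was further out in 11027 loci (54.1%) by a median of 49 bp, and leaf in 7411 (36.4%) by a median of 31 bp. At the upper end EC was further out in 10799 loci (53.0%) by 49 bp, and leaf in 7525 (36.9%) by 31 bp. Exact coincidence was the most frequent single offset, at 1949 lower ends (9.56%, 9.16 to 9.97%) and 2063 upper ends (10.1%, 9.71 to 10.5%). An offset of 1 bp in either direction was found at 971 lower and 921 upper ends, of 2 bp at 649 and 618, and of 10 bp at 258 and 236. The number of coinciding ends was thus over 2 times that of ends 1 bp apart on both sides together.

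**Figure D3:**
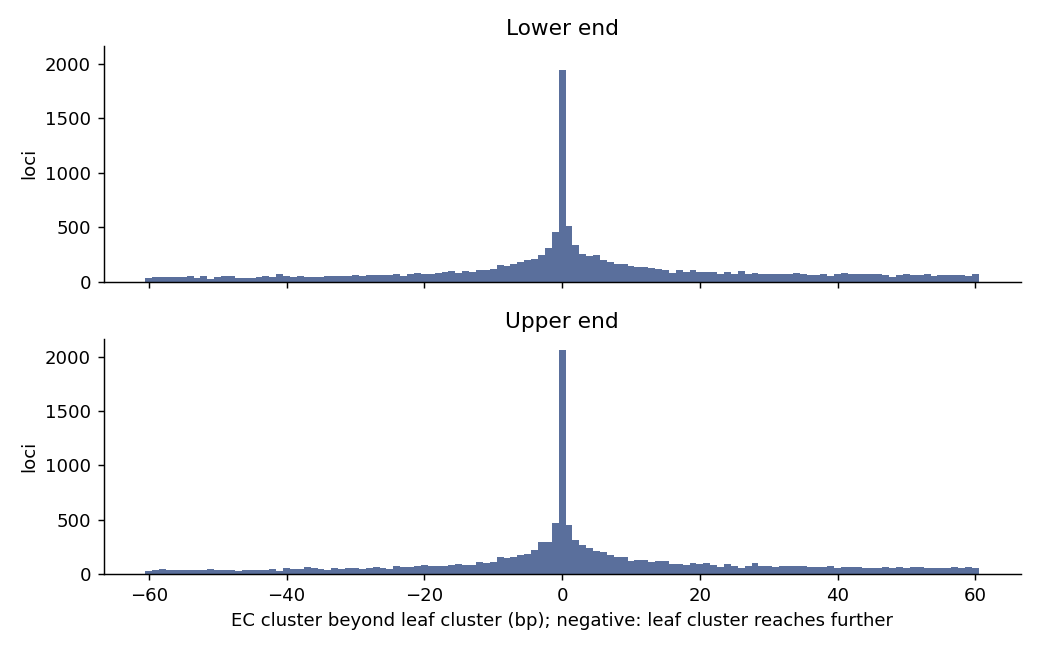
Number of loci (y axis) by the distance in bp that the EC cluster reaches beyond the leaf cluster (x axis, shown from -60 to 60 bp; negative where leaf reaches further), for the lower end above and the upper end below. Both panels peak at 0 bp, with 1949 loci at the lower end and 2063 at the upper end, and fall off on either side.

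At least 1 end was shared by 3725 loci (18.3%), and these were shorter, with medians of 79 bp in EC and 50 bp in leaf, against 127 bp in EC and 92 bp in leaf for the 16662 loci with no shared end. Of the 287 loci with both ends shared, 157 were of 24 bp and 34 were of 100 bp or more. The longest was on chromosome 10 (6263952 to 6264203) and had 252 bp in EC and in leaf. The next were 245 bp in both on chrUn (37610957 to 37611201) and 230 bp in both on chromosome 14 (9842791 to 9843020), and none of these 3 had a strand in either tissue.

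The 1864 loci of 24 bp in leaf were at the shortest length of 24 nt clusters in either list, so EC could only be equal or longer there. In 1598 of them (85.7%) the whole 24 bp lay within the EC cluster, with EC further out at both ends in 837. In 761 (40.8%) at least 1 end was shared. The reverse held for the loci of 24 bp in EC, where leaf was the longer in 577 (75.8%) and EC in 0. Binning at the shortest length fixed these directions, so neither bin shows which tissue extends. The clusters shared exactly 24 bp in 2881 loci, and less than that in 1359 (6.67%), in 18 of them a single base. In a locus with less than 24 bp shared no 24 nt siRNA can lie whole within the overlap. Clusters of 1 list were rarely nearer to each other than 74 bp, with 64 of 227814 gaps below that in EC and 38 of 89564 in leaf, so the shortest gaps were alike in the lists.

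The rule did not use strand. ShortStack gave no strand to 58.9% of the loci in EC and 47.9% in leaf. Both tissues were without strand in 6478 loci (31.8%), both had a strand in 5106 (25.05%), EC alone in 3282 (16.1%) and leaf alone in 5521 (27.1%). The call (plus, minus or none) was the same in 11135 loci (54.6%, 53.9 to 55.3%), against 54.7% of the 35177 pairs of all classes. Multiplying the strand shares of the tissues as if they were unrelated would give 38.9%. Among the 5106 loci with a strand in both, 2472 were plus in both, 2185 minus in both, 230 plus in EC and minus in leaf, and 219 minus in EC and plus in leaf. The opposite calls came to 449 (8.79%, 8.03 to 9.60%), against 9.62% over all pairs with a strand in both (930 of 9665). The same strand in both tissues was thus found for 4657 loci, which was 91.2% of those with a strand in both and 22.8% of all kept loci. The opposite share was near that of all overlapping pairs, but these include the kept loci, so the sets compared are not separate. Pairs whose class changed between the tissues had larger opposite shares, given below.

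The share of opposite calls was highest where the clusters barely met. With 1 to 11 bp of overlap 39.5% of 86 loci were on opposite strands (29.2 to 50.7%), and with 12 to 23 bp 28.8% of 326 (23.98 to 34.1%). From 24 bp, the length of 1 het-siRNA, the share was 5.40% of 1315 loci (4.24 to 6.76%). It was 7.44% of 1896 at 25 to 49 bp, 9.32% of 880 at 50 to 99 bp, 4.64% of 539 at 100 to 199 bp and 3.13% of 64 at 200 to 499 bp. Below 24 bp the share was 31.1% of 412 (26.6 to 35.8%) and from 24 bp on 6.84% of 4694 (6.13 to 7.60%). The 1359 loci with too little overlap to hold a 24 nt siRNA gave 128 of the 449 opposite calls, and the others gave 321. Pairs of a leaf 24 nt cluster with an EC cluster of another class had the same drop, from 34.1% of 132 below 24 bp to 10.9% of 667.

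**Figure D4:**
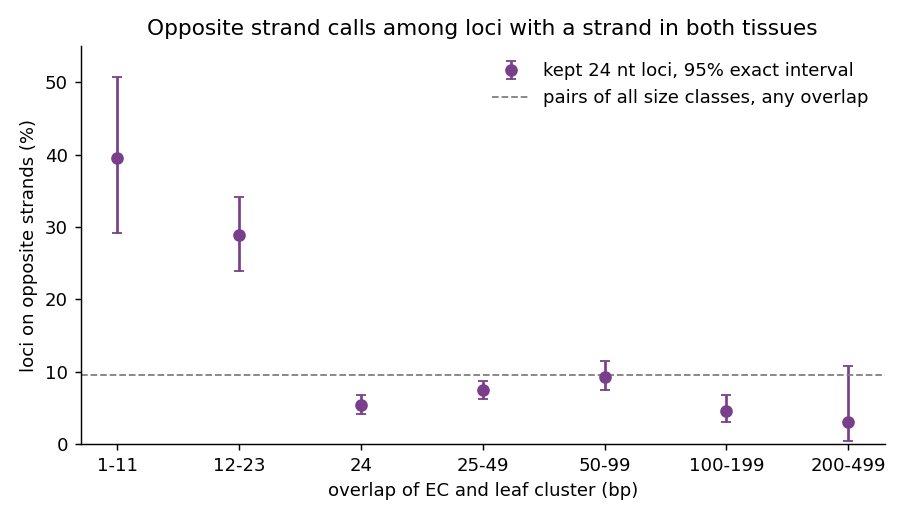
Share of loci on opposite strands (y axis, %) among those with a strand in both tissues, by the overlap of EC and leaf cluster in bp (x axis). Points are shares with 95% exact intervals, the dashed line is the 9.62% of all overlapping pairs, and the share is 39.5% and 28.8% in the bins below 24 bp and between 3.13% and 9.32% in the bins from 24 bp on.

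Shared ends went with shared strand. Of the 1520 loci with a strand in both and at least 1 shared end, 2.11% (1.44 to 2.96%) were on opposite strands, against 11.6% (10.6 to 12.7%) of the 3586 with none. A shared end implies that one cluster holds the other and so at least 24 bp of overlap, and with that overlap the share among loci with no shared end was 9.11% of 3174 (8.13 to 10.2%). Of the 220 such loci with both ends shared, 0 were on opposite strands, with an exact upper bound of 1.66%. Staggered loci were opposite in 13.8% of 1766 (12.2 to 15.5%), loci where EC held leaf in 6.50% of 2047, and loci where leaf held EC in 6.71% of 1073. All 1359 loci with under 24 bp of overlap were staggered, and without them the staggered share was 8.57% of 1354 (7.13 to 10.2%), so most of the excess of staggered loci came from the short overlaps.

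Opposite calls made up a larger share in pairs whose class changed between the tissues. Where the leaf cluster was of 24 nt and the EC partner of another class, 14.8% of 799 were opposite (12.4 to 17.4%), and where the EC cluster was of 24 nt and the leaf partner of another class, 14.5% of 1822 (12.9 to 16.2%). With overlaps of 24 bp or more these shares were 10.9% (8.68 to 13.6%) and 11.1% (9.55 to 12.8%), against 6.84% for the kept loci. Pairs that were of 21 nt in both tissues were opposite in 3.39% of 118 (0.93 to 8.45%), and pairs without a call in both in 2.26% of 1281 (1.52 to 3.24%). Among the pairs with the same class in both tissues given here, the kept 24 nt loci had the highest opposite share, although the interval of the 21 nt pairs reached theirs. Whether such intervals would hold over further libraries was not tested.

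Among the opposite loci the longest in leaf was on chromosome 18, with 257 bp on the minus strand in EC (19333256 to 19333512) and 488 bp on the plus strand in leaf (19333101 to 19333588). The next, on chromosome 17, had 283 bp on the minus strand in EC (2734857 to 2735139) and 462 bp on the plus strand in leaf (2734956 to 2735417). The third, on chromosome 9, had 81 bp on the minus strand in EC (3171931 to 3172011) and 440 bp on the plus strand in leaf (3171609 to 3172048). In all 3 the overlap was far longer than an siRNA, with 257, 184 and 81 bp. The leaf clusters on chromosomes 18 and 17 each met 2 EC clusters, of which the one with the longer overlap is given.

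Strand calls went with length. No strand was given to 2.23% of EC clusters of 24 bp and to 81.4% of those of 300 to 499 bp, and to 1.77% of leaf clusters of 24 bp and 79.2% of those of 300 to 499 bp. Long clusters were thus mostly without a strand in either tissue. Among loci of 100 bp or more in both tissues, 62.0% of 6056 had the same call and 7.50% of the 773 with a strand in both were opposite (5.75 to 9.59%). Over pairs of all classes of that length the same call stood at 62.8% of 9091 and opposite strands at 7.68% of 1419, near the values of the kept loci.

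The kept loci were spread over the whole genome. All 33 sequences of the assembly with clusters held some, with 18525 loci (90.9%) on the 19 chromosomes, 1271 on chrUn and 591 on 13 sequences that are assigned to a chromosome without a place. Density on the chromosomes was between 31.4 loci per Mb on chromosome 9 and 50.3 on chromosome 17, and it was 29.5 on chrUn. The share of EC 24 nt clusters that belonged to kept loci was lowest on chromosome 10 (9.56%, 8.95 to 10.2%) and highest on chromosome 6 (15.3%, 14.4 to 16.2%). The share of leaf 24 nt clusters that was kept was lowest on chromosome 6 (31.8%, 30.1 to 33.5%) and highest on chromosome 11 (45.1%, 42.9 to 47.2%). Chromosome 6 stood at an end of both orders, and it had the fewest EC 24 nt clusters per Mb (283.8) and the most leaf 24 nt clusters per Mb (138.6) of the 19.

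The length difference varied between chromosomes. The median of EC minus leaf was 8 bp on chromosome 6, the smallest of the 19 chromosomes, and 42 bp on chromosome 13 and 41 bp on chromosome 10, the largest. The median EC length was 105.5, 127 and 129 bp on these chromosomes, and the median leaf length was 85, 78 and 77 bp. On the 13 unplaced sequences of known chromosome the difference was 41 bp (31 to 52 bp), with medians of 127 bp in EC and 77 bp in leaf. The opposite-strand share was between 6.67% on chromosome 1 and 11.7% on chromosome 18, and the exact intervals of these overlapped.

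Along the chromosomes the kept loci were least dense in the middle. Each chromosome was divided into 5 equal parts, and over the 19 chromosomes the parts held 3837, 4221, 3085, 3414 and 3968 loci from the first to the last. The middle part had 0.791 times the density of the mean of the outer ones (0.758 to 0.824). EC 24 nt clusters stood at 270.1, 367.7, 414.1, 420.4 and 367.4 per Mb in the 5 parts, lowest in the first and highest in the part after the middle. Leaf 24 nt clusters stood at 124.8, 125.6, 91.1, 105.0 and 124.2 per Mb, lowest in the middle. By the rule the kept loci are a larger share of the leaf list than of the EC list, so their likeness to the leaf course is set in part by the choice. The middle part had the fewest kept loci of the 5 on 9 of the 19 chromosomes, and 1 of the 3 inner parts had the fewest on 16.

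The middle part was dense in EC clusters and sparse in leaf clusters, and the kept share depended on which list it was taken of. Of EC 24 nt clusters, those of kept loci were 16.2% (15.8 to 16.7%) of the first part, 8.57% (8.28 to 8.87%) of the middle part and 12.4% (12.02 to 12.8%) of the last part, and the share was lower in the middle than in the first part on 17 of the 19 chromosomes. Of leaf 24 nt clusters, the kept ones were 36.1% (35.2 to 37.0%) of the first part, 39.7% (38.6 to 40.8%) of the middle part and 37.5% (36.6 to 38.4%) of the last part, and the share was higher in the middle than in the first part on 13 of the 19. EC 24 nt clusters covered 3.17% of the length of the first part and 4.84% of that of the middle part. EC exceeded leaf by medians of 14 bp (11 to 18 bp), 26 bp (21 to 29 bp), 28 bp (24 to 34 bp), 25 bp (21 to 30 bp) and 20 bp (16 to 24 bp) from the first part to the last, so the first part stood below the 3 inner ones, whose intervals overlapped. The difference lay on the leaf side, since the median EC length was 117 bp in the first part and 118 bp in the middle, while the median leaf length was 90 bp in the first part and 76 bp in the middle.

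**Figure D5:**
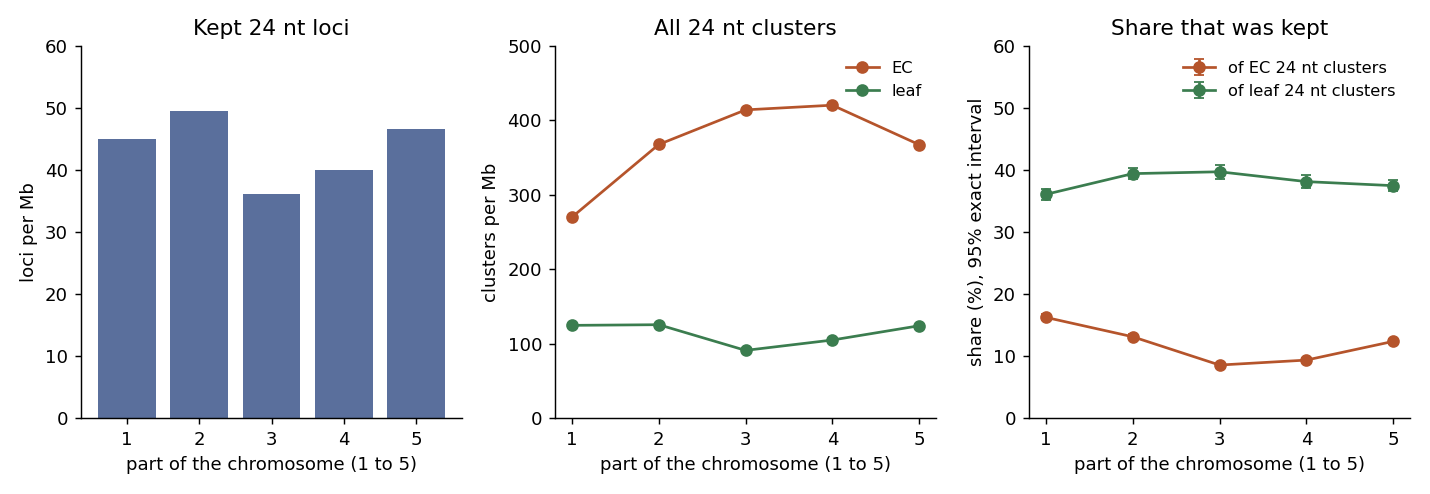
Kept loci per Mb (left), all 24 nt clusters per Mb in EC and leaf (middle), and the kept share of the EC and leaf 24 nt clusters in % with 95% exact intervals (right), in 5 equal parts of the 19 chromosomes summed (x axis). Kept loci had their lowest density, 36.2 per Mb, in part 3, where EC clusters stood at 414.1 and leaf clusters at 91.1 per Mb.

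The loci were also counted in windows of 1 Mb. In 420 windows the loci per window had a median of 43 (quartiles 32 and 53), with 6 as the lowest and 100 as the highest value. Loci per window were tied to EC 24 nt clusters per window with r = 0.23 and rho = 0.19, and to leaf 24 nt clusters with r = 0.85 and rho = 0.85, as a description over windows of the same pair of libraries. Each locus is itself one of the clusters counted, and the loci are 38.1% of the leaf list but 11.4% of the EC list, so the gap between these values is set in part by the choice and nothing is read from it. Among the 395 windows with at least 50 leaf 24 nt clusters, the kept share of these was between 22.03% and 59.5%, with a median of 37.8%.

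The window with most loci was 7 to 8 Mb of chromosome 3, with 100 loci among 532 EC and 199 leaf 24 nt clusters. It was followed by 7 to 8 Mb of chromosome 13 with 93 loci (682 EC and 187 leaf 24 nt clusters) and 20 to 21 Mb of chromosome 7 with 90 (439 EC and 175 leaf). Windows at 8 to 9 Mb of chromosome 1 (435 EC and 170 leaf) and at 6 to 7 Mb of chromosome 10 (512 EC and 156 leaf) had 80 each. A further 3 windows were tied with these at 80, namely 8 to 9 Mb of chromosome 3 (606 EC and 171 leaf), 21 to 22 Mb of chromosome 13 (421 EC and 160 leaf) and 8 to 9 Mb of chromosome 17 (351 EC and 186 leaf). All 8 exceeded the median window in leaf clusters (116.5), and 7 of them, chromosome 17 being the exception, in EC clusters (354.5). The kept share of leaf clusters in the 8 was between 43.0% and 51.4%. The fewest loci, 6, were found at 6 to 7 Mb of chromosome 8, a window with 180 EC and 14 leaf 24 nt clusters, which was looked up after the values were seen.

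Gaps between neighbouring loci varied widely. The median gap between neighbouring loci was 10608.5 bp (10256 to 10960 bp, quartiles 2324.5 and 30305 bp), and 3197 of 20354 gaps (15.7%) were under 1 kb. Going along the leaf 24 nt clusters, the next one was a kept locus in 42.5% of cases after a kept locus (41.9 to 43.2%) and in 35.3% after one that was not (34.8 to 35.8%). Where the neighbour was less than 500 bp away these shares were 50.2% (48.7 to 51.8%) and 32.7% (31.5 to 33.8%), and at more than 2000 bp 39.4% and 35.5%. The longest run of successive leaf 24 nt clusters that were all kept counted 12, and 416 runs counted 5 or more. The part in these shares of EC clusters that span several leaf clusters was not tested.

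Other EC clusters were closer to kept loci than to the leaf 24 nt clusters without an EC overlap. The next EC cluster, any that overlapped the locus left aside, was 335 bp away by the median from a kept locus, against 492 bp from a leaf 24 nt cluster with no EC overlap. In the 5 parts of the chromosomes these medians were between 322 and 350 bp for kept loci and between 457 and 549 bp for the others, so the order was the same in each part. Within 5 kb there were 7 further EC clusters against 5, and none in 2.50% against 6.18%. Further leaf clusters differed less, with a median distance of 646 bp against 735 bp and a median of 3 within 5 kb of both. Of the EC clusters near kept loci 79.4% were of 24 nt, against 77.6% near the others. Of the leaf clusters near kept loci 66.8% were of 24 nt, against 65.3%. A further 4244 leaf 24 nt clusters met an EC cluster of another class or were over the length limit. In EC clusters their values were near those of kept loci, with the next at 366.5 bp and 7 further ones within 5 kb. In leaf clusters they were not, with the next at 505.5 bp by the median and 64.9% of those nearby of 24 nt. The difference in EC clusters thus lay between leaf 24 nt clusters with and without an EC overlap, and the rule selected on that overlap.

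Most pairs were mutual. In 19786 (97.1%) the leaf cluster was also the best partner of its EC cluster. A further relation was a single EC cluster over several kept leaf clusters, found for 443 EC clusters with 890 loci (4.37%), of which 439 held 2 and 4 held 3. Leaf clusters outside the kept loci were left out of this count. The EC cluster in these loci had a median of 279 bp and the leaf cluster 63 bp. The 4 with 3 loci were looked up after the values were seen. One of them, on chromosome 12, was a plus-strand EC cluster of 372 bp (7226282 to 7226653) over leaf clusters of 38, 24 and 24 bp, all on the plus strand (7226280 to 7226317, 7226465 to 7226488 and 7226600 to 7226623). The reverse, a leaf cluster over several EC clusters, was found for 608 loci (2.98%), 14 of them with 3. The median lengths in these 608 were 111 bp in EC and 249.5 bp in leaf. Here EC clusters of any class were counted, so the 2 shares are not on the same footing.

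ShortStack marked 2 of the loci as miRNA loci. Reads of recognised miRNAs had been taken out earlier by the authors. On chromosome 19 both tissues carried the mark and both clusters were on the plus strand, with 131 bp in EC (7112959 to 7113089) and 69 bp in leaf (7113021 to 7113089), flush at the upper end. On chromosome 18 only the leaf cluster carried it, with 61 bp and no strand in EC (2098620 to 2098680) and 113 bp on the plus strand in leaf (2098559 to 2098671). In the whole lists 3 EC clusters and 3 leaf clusters of 24 nt had such a mark. A mark rests on the folding of the surrounding sequence and the position of reads in it, neither of which was looked at here.

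The length difference depended on the limit, as the median of EC minus leaf was 14 bp when both clusters had to be under 250 bp, against 23 bp. The median difference also depended on the pairing, with 19 bp in reciprocal pairs and 16 bp in pairs started from the EC cluster. With both clusters of at least 50 bp the number of loci was 11714, and EC held the whole leaf cluster in 31.2% of them.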

How the data were processed

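The authors trimmed and size filtered the reads in the UEA small RNA Workbench, removed tRNA and rRNA reads with PatMaN and then miRNA reads, and mapped the rest to the PN40024 12X genome with ShortStack. ShortStack places multi-mapping reads by the unique reads nearby, which can move clusters within repeats. The deposited lists gave start, end, strand, DicerCall and a miRNA mark for each cluster, and no read number, so a cluster of few reads counted like a deep one. The cluster settings were not found in the labels or the methods.

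Overlaps, lengths and counts were computed in Python 3.11.15 with numpy 2.4.6, pandas 2.3.3 and scipy 1.17.1 (figures, matplotlib 3.10.9), and the pairing was tested on simulated data. No simulated leaf cluster met several EC clusters or shared its EC cluster with another. The choice of the longest overlap and the rule for ties were thus not tested. Intervals (95%) of shares were exact binomial, and those of medians came from order statistics. Sequence lengths were the largest cluster end in either list. Positions are 1-based. No annotation or sequence of the 12X build was used here, so genes, repeats and sequences at the loci were not looked up. The loci, their limit and the quantities were chosen with earlier results of these data known.

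Named loci were the 3 longest in leaf, the 3 of largest difference in each direction, the 3 longest with the same ends and on opposite strands, those with a miRNA mark, the 3 pairs nearest to the limit on each side, and the 5 windows with most loci. Ties among named loci went by sequence name, then start. Alternatives changed the minimum overlap, the length limits, the reciprocity of pairs, the number of chromosome parts and, chosen after seeing the data, the tissue from which pairs were started.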

Additional observations from a re-analysis of the deposited data

How the results depend on the processing

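Of 41 values recomputed under 9 alternatives, 25 stayed within the interval (or within 1.5 times the count) given in the report, 16 did not, and 0 turned in direction. Numbers of loci and gaps have no direction that could turn. Most alternatives were subsets of the same loci, so these counts are a description. The share of loci where EC held leaf (38.2%) was 41.0% with at least 24 bp of overlap, 42.5% with at least 50% of the shorter cluster overlapped, 39.0% with no length limit, 35.8% with both clusters under 250 bp, 31.2% with both of at least 50 bp and 36.8% with pairs started from the EC cluster. The median of EC minus leaf (23 bp) was 19 bp in reciprocal pairs, 25 bp with no length limit, 14 bp under 250 bp, 17 bp from 50 bp and 16 bp with pairs started from EC. The median gap (10608.5 bp) was 11335 bp in reciprocal pairs. From 50 bp there were 11714 loci and the density of the middle part was 0.725 times the outer ones. The opposite-strand share (8.79%) was 6.84% with at least 24 bp and 7.65% with at least 50% of the shorter cluster overlapped. The size limits and overlap minimums by construction removed loci. The cause of the other shifts was not tested. Depth per locus was unknown, and no value could be thinned to equal depth. No paired analysis was possible because EC and leaf had a single library each.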
